A study of Macaca fascicularis with 6 samples.

Results

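Neutrophils of the monkey lung were examined here as the cells that met a marker rule, 814 of 25388 quality-controlled cells (3.21%). Members were thus chosen by their own measured RNA. A cell was taken when it held a UMI of at least 2 of the 7 genes CSF3R, CXCR1, MMP9, SORL1, OSM, CAMP and MMP8, with CSF3R or CXCR1 among them, and no UMI of CD3D, CD3E, C1QA, VCAN, MS4A1 or MARCO, genes that mark T cells, macrophages, monocytes and B cells. A UMI (unique molecular identifier) tags 1 captured RNA molecule, so that its PCR copies are counted once. The cells came from lungs of 6 male cynomolgus monkeys of 3 to 5 years, with 1 droplet library of dissociated tissue from each. The control libraries carry the replicate numbers 1, 2 and 3, and the asthma libraries 8, 10 and 11, so that n = 3 in either group. Asthma monkeys had been sensitized with an A. suum (roundworm) antigen at 1 mg/mL, injected with adjuvant, and challenged with the antigen at 10 mg/mL. Control monkeys had received saline instead. Lungs of both groups were taken in week 11, after airway tests with methacholine, from 3 of the 7 monkeys of each group. Each library therefore stands for 1 animal, and p-values measure the spread between these animals.

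Neutrophils are short-lived granulocytes that are made in bone marrow under the cytokine G-CSF, whose receptor is CSF3R, and that follow CXCL8 and bacterial products into inflamed tissue. They kill microbes with an NADPH oxidase and with granule proteins, most of which they transcribe in the marrow and only carry as protein once mature. Asthma in this antigen model is better known for eosinophils, and neutrophils are studied in severe and steroid-resistant asthma. In droplet assays they are hard to capture, because a mature neutrophil holds little RNA.

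The 814 cells fell into a small-RNA and a large-RNA kind, and the neutrophil label held for the first. Of these cells 622 had at most 2000 UMIs, with a median of 973.5 UMIs and 0.412% of UMIs in mitochondrial genes, and 192 had more than 2000, with medians of 4682 UMIs and 4.44%. The boundary was chosen after seeing the data, and 44 cells lay between 1500 and 2500 UMIs. Below, these are called small and large cells. Small cells carried neutrophil genes that the rule had not used. After each cell was thinned to 700 UMIs, S100A8, a subunit of the antimicrobial protein calprotectin, was found in 67.5% of small cells (72.3% before thinning) against 14.6% of large cells (30.2% before) and 0.7% of T cells (3.00% before), which should lack it and had a median of 3815 UMIs. Monocytes with VCAN, which make S100A8 too, had it in 50.1% (69.0% before). SOD2, a mitochondrial superoxide dismutase, was found in 97.1% of small cells, 53.5% of monocytes with VCAN, 32.1% of macrophages, 37.5% of large cells and 5.4% of T cells. Before thinning, monocytes had it in 95.1% and macrophages in 97.1%, at medians of 8189 and 23674 UMIs. At least 3 of 8 such markers outside the rule were seen in 63.3% of small cells, 3.1% of large cells and 20.6% of monocytes with VCAN. Before thinning these shares were 71.5%, 21.4% and 51.3%, with 0.488% of T cells. By these markers the large cells lay far below small cells, though above T cells. The neutrophil label did not hold for the large cells as a set, although they met the rule, and they are given no cell type here.

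**Figure D1:**
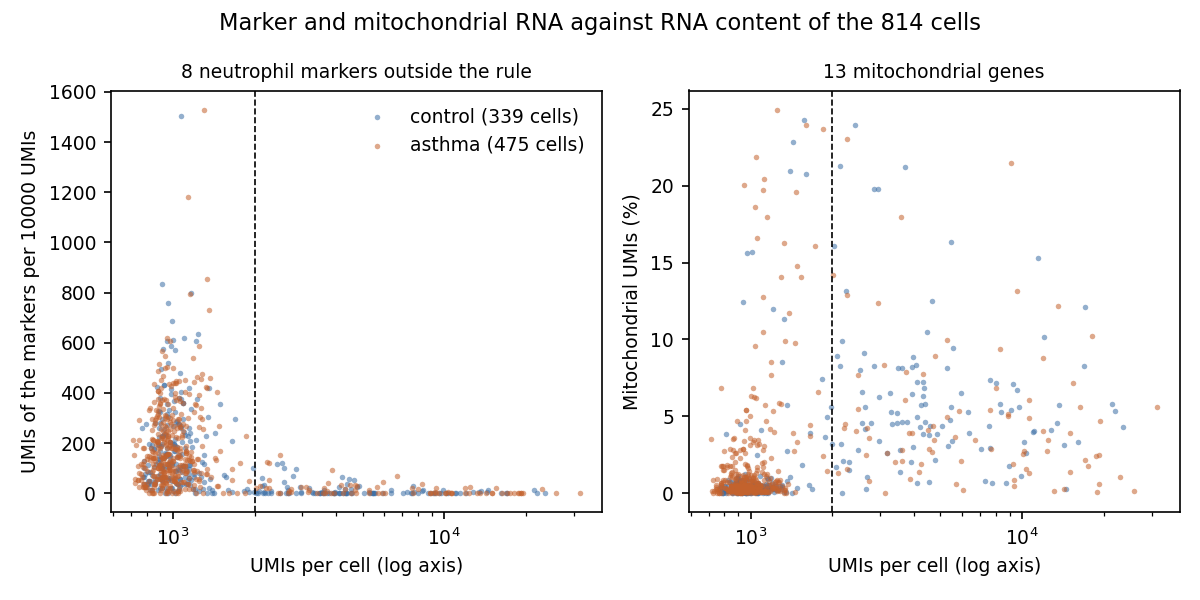
Each point is 1 of the 814 rule-selected cells, with its UMIs on a log axis, coloured by group. The left panel shows UMIs of 8 neutrophil markers that the rule did not use, per 10000 UMIs, and the right panel the percent of UMIs in 13 mitochondrial genes; the dashed line at 2000 UMIs divides the 622 small from the 192 large cells, whose marker values lie near 0.

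Other lineages were present in the large cells. Of 192 large cells, 108 (56.25%) gave more than 100 of 10000 UMIs to one of 10 marker lists of other cell types, against 18 of 622 small cells (2.89%). Most of these, 72 large cells, had T and NK cell genes, among them GNLY and GZMB, which encode cytotoxic granule proteins, while 15 had macrophage genes, 11 epithelial genes, 9 monocyte genes and 8 B and plasma cell genes. Summed UMIs show how far single cells reach. One large cell of asthma replicate 10 held 4923 of the 5807 IGKC UMIs (immunoglobulin light chain) of all large cells, and 1 of asthma replicate 8 held all 85 UMIs of CLC, the eosinophil Charcot-Leyden crystal protein. Large cells were 23.6% of the members but held 68.3% of their 2006236 UMIs, so sums over all members are mostly sums over large cells. Scrublet's doublet scores, used only as an alternative, marked 38 of 192 large cells (19.8%) and 10 of 622 small cells (1.61%) among the highest scores.

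The threshold of the rule showed the same gradient. Just inside it, 175 cells with exactly 2 marker genes had a median of 2673 UMIs, 59.4% were large, and S100A8 came to 319 CPM (UMIs per 1000000 UMIs) in their sum. Just outside, 199 cells with exactly 1 marker gene had a median of 3840 UMIs and 76.9% above 2000, with S100A8 at 13.2 CPM and SFTPC, the surfactant protein of alveolar type 2 cells, at 38432 CPM. The 639 cells with 3 or more marker genes had a median of 1012 UMIs, 13.8% large cells and S100A8 at 3116 CPM. The rule genes themselves were unevenly detected. CSF3R was found in 781 members, SORL1 in 692, CAMP in 626, OSM in 331, CXCR1 in 240, MMP9 in 151 and MMP8 in 2. Before the exclusions 4933 cells met the marker part, and VCAN alone or with others removed 2882 of them. No barcode was shared between libraries among the members, whereas 82 barcodes of quality-controlled cells occurred in 2 libraries.

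The share of rule-selected cells, large cells included, differed more between monkeys than between the groups. These cells numbered 130 of 4509 cells (2.88%), 136 of 3511 (3.87%) and 73 of 4066 (1.80%) in control replicates 1, 2 and 3. In asthma replicates 8, 10 and 11 they numbered 102 of 4305 (2.37%), 238 of 4719 (5.04%) and 135 of 4278 (3.16%). The highest share belonged to asthma replicate 10 and the lowest to control replicate 3, and the other 4 libraries interleaved. Means were 2.85% ± 1.04 (SD, n = 3) in control and 3.52% ± 1.37 (SD, n = 3) in asthma, a difference of 0.672 percentage points that did not exceed the spread between monkeys (two-sided exact permutation test, p = 0.6, with 0.1 as the smallest p that 3 against 3 allow). Without asthma replicate 10 the difference turned to -0.0882 points (exact permutation test, p = 1).

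Small cells alone ran from 28 in control replicate 3 to 206 in asthma replicate 10. Control replicates 1, 2 and 3 had 77, 125 and 28 small cells and asthma replicates 8, 10 and 11 had 86, 206 and 100, which is 1.99% ± 1.46 against 2.90% ± 1.28 of quality-controlled cells (SD, n = 3 per group, exact permutation test, p = 0.4). Large cells took an uneven part of the members. They were 40.8%, 8.09% and 61.6% of the members in control replicates 1, 2 and 3, against 15.7%, 13.4% and 25.9% in asthma replicates 8, 10 and 11 (exact permutation test, p = 0.4). Control replicates 1 and 3 stood above all asthma libraries and control replicate 2 below them all. This makeup enters each comparison of counts summed over all 814 members, where its part was not tested, and does not enter those over small cells alone.

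**Figure D2:**
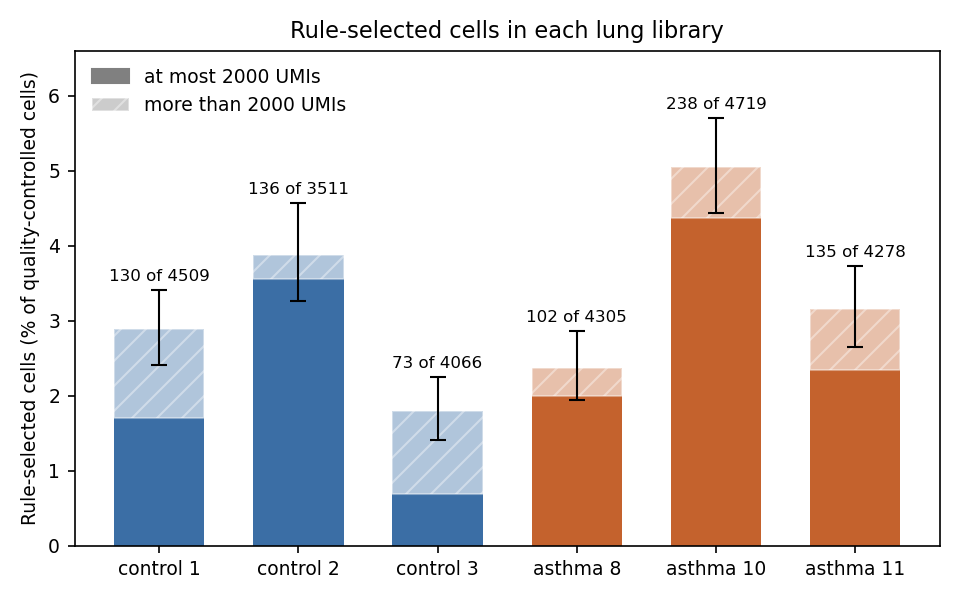
Bars show the rule-selected cells as a percent of the quality-controlled cells of each library, solid for cells with at most 2000 UMIs and hatched for larger cells, with exact 95% binomial intervals that cover counting error only. Asthma replicate 10 is highest at 5.04% and control replicate 3 lowest at 1.80%, and the intervals of the 2 groups overlap.

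The RNA content of small cells was bounded by their selection, from above by 2000 UMIs and from below by the gene minimum, so their medians are a description. The median was 976, 1023 and 939.5 UMIs in control replicates 1, 2 and 3, against 932, 953.5 and 998 in asthma replicates 8, 10 and 11. Quality-controlled cells of all types had a median of 4225.5 UMIs. When all members with at least 1000 UMIs were thinned to that depth, which left out 348 shallower cells, the median number of genes per cell lay between 557 and 583 in every library. Mitochondrial UMIs were a median of 0.128 to 0.406% of small cells in 5 libraries and 1.78% in asthma replicate 11, which stood apart.

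The genes with the highest ratios of small cells to all other lung cells are given as a description, since the rule chose these cells by their own RNA. CSF3R and CXCR1, the receptor for CXCL8, were among the leading genes, and both were part of the rule. Leading genes outside the rule included RFLNB, SOD2, SLC25A37 (mitoferrin, an iron carrier), ABTB1, NAIP (a sensor of bacterial flagellin), JAML (a junctional adhesion protein for transmigration), PHOSPHO1, MMP25 (a membrane-bound protease of neutrophil granules), MXD1 and NFE2. Each of these was higher in every library's small cells than in the other cells of any library. SOD2, for example, came to 17983 CPM over small cells and 631 CPM over all others.

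Receptors for antibody, cytokines and microbial products were detected in small cells of both groups. FCGR2A, an activating receptor for IgG, stood at 1769, 2369 and 1666 CPM in control against 1758, 2763 and 2172 CPM in asthma, and the groups overlapped. CSF2RB, the shared chain of the receptors for GM-CSF, IL-3 and IL-5, was at 719 ± 233 CPM in control against 829 ± 66.1 CPM in asthma (SD, n = 3). TLR4, the lipopolysaccharide receptor, was at 705 ± 113 and 669 ± 44.2 CPM, and CD14, its co-receptor, at 1126 ± 468 and 969 ± 319 CPM. P2RY13, a receptor for ADP, was low in control replicate 3 at 243 CPM and between 1128 and 1262 CPM in the other 5 libraries. IL4R and IL13RA1, through which type 2 cytokines act, had UMIs in 6.59% and 19.0% of small cells. IL5RA had none in any member and 18 in all quality-controlled cells. Of 15 listed neutrophil markers, 4 (CXCR2, FPR1, FCGR3 and TNFRSF10C) had no row under that symbol and were not analysed here.

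Listed granule genes ranged from 0 to detection in most small cells. The azurophil granule genes MPO, ELANE, PRTN3 and CTSG, transcribed in marrow promyelocytes, had no UMI in small cells, which allows each gene 3 UMIs of their 635807. LTF (lactoferrin), a specific granule gene, had 6 UMIs in 6 small cells, LCN2 had 8, and ARG1 and TCN1 had none. All quality-controlled cells together held 2 UMIs of ARG1 and 1 of TCN1. Of the azurophil list, the lysosomal genes CTSD and CD63 were found in 45.0% and 36.8% of small cells. Of the specific granule list, CAMP, a cathelicidin and a rule gene, was found in 83.1% and LYZ (lysozyme) in 51.4%. CAMP was also found in 95.5% of macrophages and 82.4% of monocytes with VCAN, and in 3.42% of T cells. After thinning, its shares were 76.5% in small cells, 31.7% in macrophages, 37.6% in monocytes with VCAN and 0.87% in T cells. CD63 and LYZ were lower in small cells, at 463 and 1074 CPM, than in all other quality-controlled cells, at 1504 and 5449 CPM. SFTPC, the alveolar type 2 gene, had UMIs in 201 small cells. The part of RNA from other cells in such shares was not tested. Of the gelatinase granule and secretory vesicle list, SLC11A1, a metal ion transporter, was found in 54.7%, MMP25 in 48.1%, QPCT in 22.7% and the rule gene MMP9 in 21.7%, and every gene of that list with a row had a UMI. Cytosolic oxidase subunits were detected, with NCF1 at 1329 ± 403 CPM in control against 1369 ± 177 CPM in asthma, and NCF4 at 809 ± 128 and 684 ± 102 CPM (SD, n = 3 per group). CYBB, the catalytic membrane subunit, had UMIs in 3.70% of small cells. Eosinophil genes were at 0 in small cells: CLC, EPX, PRG3, CCR3 and IL5RA had no UMI, while CLC was seen in 153 quality-controlled cells, 1 of them a large member. The zeros of EPX, PRG3 and IL5RA say little, since all quality-controlled cells together held 15, 7 and 18 of their UMIs. Of the 13 listed eosinophil and basophil genes, 10 had a row.

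Calprotectin genes were uneven across monkeys, with 1 control library far below the others. S100A8 stood at 1246, 7847 and 5624 CPM in control replicates 1, 2 and 3, against 6973, 5325 and 6164 CPM in asthma replicates 8, 10 and 11, and S100A9, its partner, at 3638, 11608 and 11387 CPM and at 16057, 7243 and 9413 CPM. Control replicate 1 was lowest for both, and without it the groups still overlapped. S100A4 and S100A6, calcium-binding proteins of the same family, did not overlap between the groups in small cells and were higher in asthma. S100A4 stood at 187, 242 and 208 CPM in control against 755, 473 and 495 CPM in asthma, and S100A6 at 611, 991 and 1180 CPM in control against 1546, 1318 and 1543 CPM in asthma. The S100A4 values rest on 15, 32 and 6 UMIs in control replicates 1, 2 and 3, against 64, 97 and 52 in asthma replicates 8, 10 and 11. Over all members both overlapped, S100A4 between 399 and 1635 CPM in control, against 470 to 2141 CPM in asthma, and S100A6 between 1611 and 2488 CPM and between 2104 and 3073 CPM. Such separation was not rare: among the 1585 genes that could be tested in small cells, the groups did not overlap in 136 (8.58%), 78 higher (4.92%) and 58 lower (3.66%) in asthma. In the other cells of the same libraries S100A4 showed no such order (1838 to 2745 CPM in control against 2103 to 2958 CPM in asthma).

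**Figure D3:**
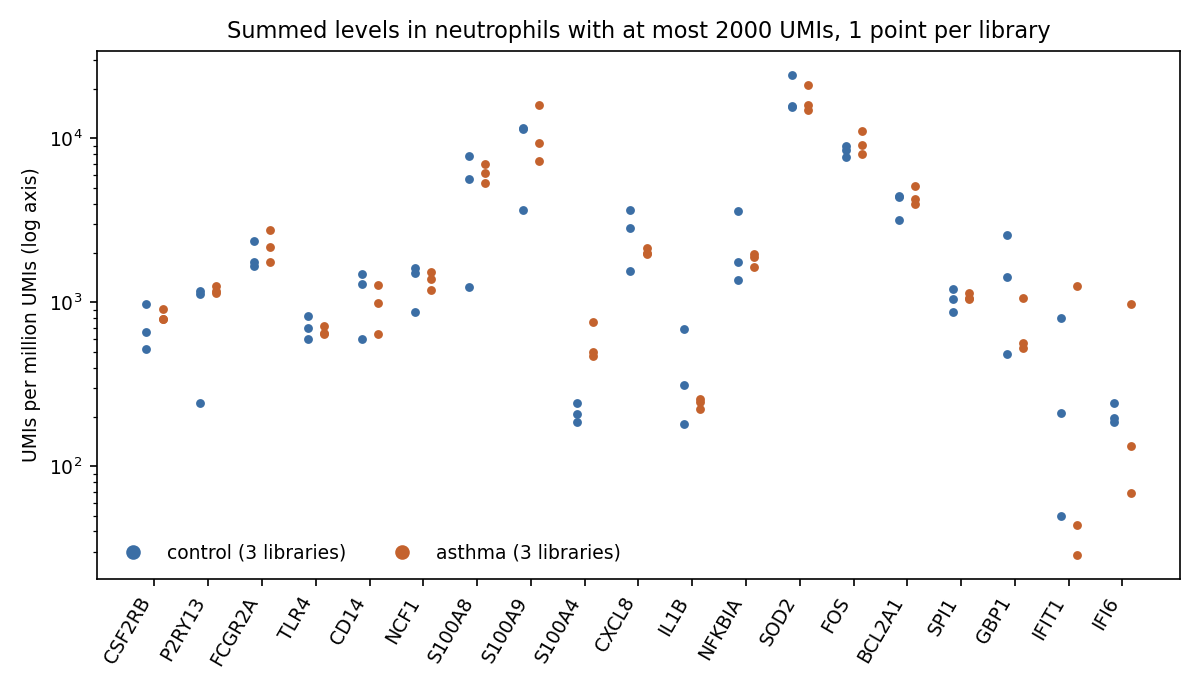
Points give the level of named genes in the summed small cells of each library, in CPM on a log axis, with control on the left and asthma on the right of each gene. The groups overlap for all genes shown other than S100A4, and the interferon-stimulated IFIT1 and IFI6 spread most within a group.

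Inflammatory transcripts were present in both groups. CXCL8, the main neutrophil attractant, was found in 45.3% of small cells, at 3663, 1544 and 2847 CPM in control replicates 1, 2 and 3, against 1970, 2133 and 1991 CPM in asthma replicates 8, 10 and 11. After thinning to 700 UMIs the share with CXCL8 was 41.2% in small cells, 26.2% in monocytes with VCAN, 18.7% in macrophages, 8.9% in large cells and 0.9% in T cells. IL1B, the fever cytokine interleukin-1 beta, was highest in control replicate 1 at 685 CPM and lay between 182 and 312 CPM elsewhere, and the NF-kB inhibitor NFKBIA was highest there too, at 3588 CPM against 1370 to 1970 CPM. Control replicate 1 thus led in CXCL8, IL1B and NFKBIA and was lowest in S100A8 and S100A9. Unlike CXCL8, IL1B was less often found in small cells than in monocytes with VCAN or macrophages. After thinning to 700 UMIs its shares were 15.0%, 44.5% and 19.2%, with 9.9% of large cells and 1.1% of T cells. BCL2A1, which delays neutrophil death, was at 3987 ± 718 CPM in control against 4457 ± 580 CPM in asthma (SD, n = 3), and FOS, an immediate-early gene that also answers tissue dissociation, at 8378 ± 605 and 9446 ± 1583 CPM.

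Interferon-stimulated genes, which mark a response to type I or type II interferon, varied widely between monkeys and between single cells. In small cells the 29 detected genes of this list gave 21.7, 57.7 and 64.6 of 10000 UMIs in control replicates 1, 2 and 3, against 76.6, 15.9 and 24.1 in asthma replicates 8, 10 and 11. Neither group was uniformly high, and asthma replicate 8, with control replicates 2 and 3, stood above the other 3. IFIT1, an antiviral RNA-binding protein, ran from 28.6 CPM in asthma replicate 11 to 1262 CPM in asthma replicate 8. IFI6 was at 979 CPM in asthma replicate 8 and between 68.3 and 243 CPM in the other libraries. GBP1, a guanylate-binding protein that interferon-gamma induces, had another order, being highest in control replicate 2 at 2558 CPM.

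Within each library the interferon values were uneven among cells. The 10% of small cells with the highest values held 49.4%, 38.2% and 36.0% of the list's summed UMIs in control replicates 1, 2 and 3. In asthma replicates 8, 10 and 11 they held 52.5%, 45.5% and 35.6%. For inflammatory cytokines and chemokines the same share of summed UMIs was 33.9%, 37.4% and 31.8% in the control libraries. It was 40.6%, 38.1% and 34.9% in the asthma libraries. The lists thus lay close in control replicates 2 and 3 and asthma replicate 11, and apart in the other libraries. Lists with few UMIs per cell give uneven shares, and the part of counting error was not tested. Of all small cells, 25.2% had no UMI of the interferon list.

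**Figure D4:**
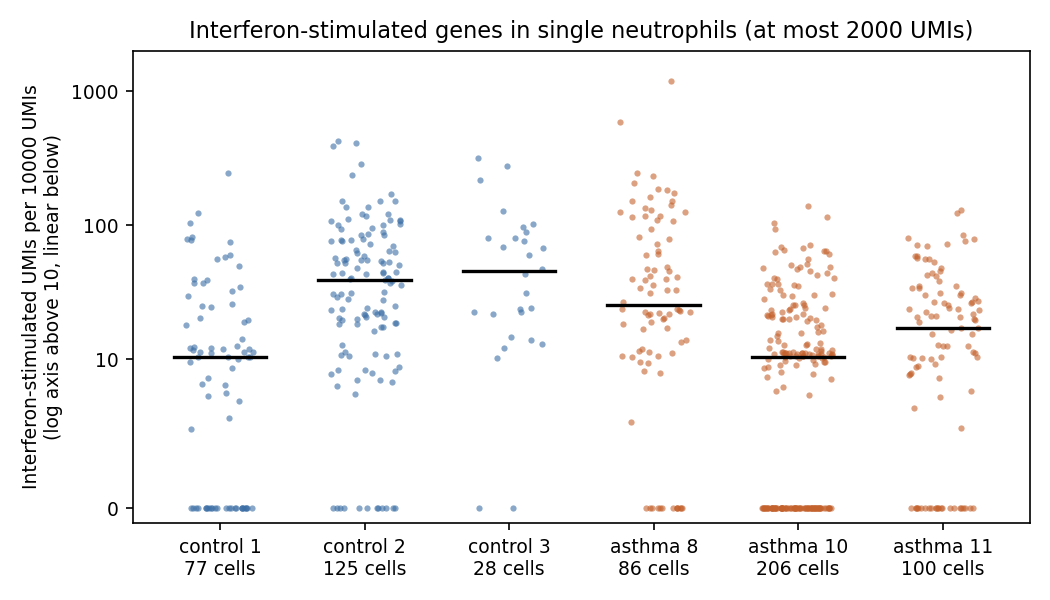
Each point is 1 small cell, with the UMIs of the interferon-stimulated list per 10000 UMIs on an axis that is linear below 10 and logarithmic above, and black lines mark the library medians. Medians run from 10.4 in control replicate 1 to 45.3 in control replicate 3, and the 2 highest cells belong to asthma replicate 8.

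To ask which genes differed between asthma and control, UMIs were summed over the members of each library and tested with edgeR across all genes. No gene passed (0 of 4495 tested, 0%, where a call needed an adjusted p under 0.05 with a log2 fold change beyond 0.25 in size). An unadjusted p under 0.05 was reached by 158 genes (3.52%), 76 higher (1.69%) and 82 lower (1.82%) in asthma, and the groups did not overlap in 376 (8.36%). The median log2 fold change of all tested genes was 0.02. In small cells alone 0 of 1585 genes passed (0%) and 44 had an unadjusted p under 0.05 (2.78%), 13 higher (0.82%) and 31 lower (1.96%). DESeq2 called 5 of the 4495 genes, all higher in asthma, and the Wilcoxon test across cells, which takes cells and not monkeys as replicates, called 54 of 2994. Without its filter on low counts edgeR called 93 of 14821 genes over all members. Below, calls by edgeR are those of the filtered fits unless stated otherwise.

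The 5 genes with the smallest p among those higher in every asthma library were EGFL7, HPGD, ACE, FCN3 and RAMP3, which lung capillary endothelium expresses, and the same 5 were those that DESeq2 called. All 5 were also called by edgeR without the filter. EGFL7, an endothelial secreted factor, had 2, 2 and 1 UMIs in control replicates 1, 2 and 3, against 24, 32 and 38 in asthma replicates 8, 10 and 11 (edgeR log2 fold change 3.92 ± 0.47 SE, adjusted p = 0.083). HPGD, which breaks down prostaglandins, had 0, 0 and 2 UMIs against 19, 44 and 25 (edgeR adjusted p = 0.127). Few cells carried them: EGFL7 was seen in 15 small and 17 large cells, and HPGD in 5 small and 6 large cells, 1 of which held 40 UMIs. In the rest of the libraries EGFL7, HPGD, ACE and RAMP3 were also higher in every asthma library, HPGD for example between 4.9 and 14.1 CPM in control and between 116 and 163 CPM in asthma. FCN3 overlapped there, with control replicate 3 at 133 CPM and asthma replicate 10 at 119 CPM. The part of that RNA in the sums over members was not tested.

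Genes lower in every asthma library were 193 of 4495 (4.29%), and the 5 of them with the smallest p were genes that lymphocytes express. PTPN22, SLAMF7, CD84, PYHIN1 and CD8A had adjusted p from 0.77 to 0.908 in edgeR and were not called. PTPN22 and SLAMF7 were called by edgeR without the filter. CD8A, the co-receptor of cytotoxic T cells, stood at 90.1, 75.4 and 115 CPM in control replicates 1, 2 and 3, against 30.2, 43.6 and 36.3 CPM in asthma replicates 8, 10 and 11. Its UMIs, 34, 17 and 35 against 7, 21 and 14, overlapped before scaling to the library sums, and 118 of the 128 came from large cells. Together, the T and NK list gave 95.7, 30.2 and 94.3 of 10000 UMIs in control and 7.38, 51.5 and 28.8 in asthma over all members. In small cells it gave 8.72, 9.38 and 16.0 against 5.31, 2.93 and 5.81, so that little of it came from them. CD3D and CD3E were at 0 by the rule, and GZMB was the most abundant gene of the list, with 4377 UMIs in large and 145 in small cells. The part of lymphocyte RNA in these differences was not tested.

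Functional lists showed no member that passed edgeR's filtered test in either group of cells, while DESeq2 called HPGD, an eicosanoid enzyme, over all members. Without the filter, edgeR's calls over all members included HPGD, TNFSF10, CXCL3, CXCL10, IFI27 and ALPL. Over all members the surface lists had medians above that of all genes (log2 0.02): adhesion and migration 0.43, with 10 of 11 tested genes higher in asthma, pattern recognition and Fc receptors 0.37 with 9 of 10, and cytokine and growth factor receptors 0.33 with 9 of 12. Calprotectin and S100 genes had a median of 0.40 (5 of 6 higher), gelatinase granule and secretory vesicle genes 0.40 (5 of 6), and NF-kB feedback genes 0.25 (9 of 14). Leaving out 1 library at a time gave 0.193 to 0.697 for adhesion, 0.0231 to 0.886 for pattern recognition and -0.0171 to 0.564 for cytokine receptors, whose sign thus turned. It gave 0.199 to 0.975 for calprotectin and S100, 0.0459 to 1.219 for gelatinase granule and 0.190 to 0.305 for NF-kB feedback genes. In small cells fewer genes could be tested, so those medians are over other sets of genes. They were 0.33 for adhesion (4 of 7 higher), -0.11 for pattern recognition (4 of 9), 0.02 for cytokine receptors (6 of 11), 0.46 for calprotectin and S100 (4 of 4), 0.26 for gelatinase granule (3 of 5) and -0.13 for NF-kB feedback genes (1 of 5), beside -0.01 for all genes. The share of small cells was lower in 2 of 3 control libraries, and its part in these medians was not tested.

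Heat shock and chaperone genes had a median of -0.27 with 8 of 9 lower in asthma, and immediate-early genes -0.05 with 12 of 18 lower, none called by edgeR. The heat shock median ran from -0.590 to 0.0367 when 1 library was left out and the immediate-early median from -0.292 to 0.0558, so both signs turned. In small cells the heat shock median was -0.12 (5 of 6 lower). HSPA8, a cytosolic chaperone, had the lowest value of its list, -0.70 ± 0.34 SE (edgeR adjusted p = 1.0). Interferon-stimulated genes had a median of -0.02 over all members, with 8 of 16 higher. In small cells it was -0.43, with 8 of 10 lower and none called by edgeR. Leaving out 1 library at a time moved the median over all members between -0.69 and 0.34. Among azurophil granule genes, the lysosomal CD63 and CTSD were higher in every asthma library: CD63 stood at 671, 550 and 551 CPM in control replicates 1, 2 and 3, against 949, 1058 and 836 CPM in asthma replicates 8, 10 and 11. For CD63 that is a log2 fold change of 0.69 ± 0.28 SE (edgeR adjusted p = 1.0), in a fit in which 183 of 4495 genes (4.07%) were higher in every asthma library. In small cells CD63 was at 474, 409 and 521 CPM against 460, 430 and 486 CPM, with overlap.

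**Figure D5:**
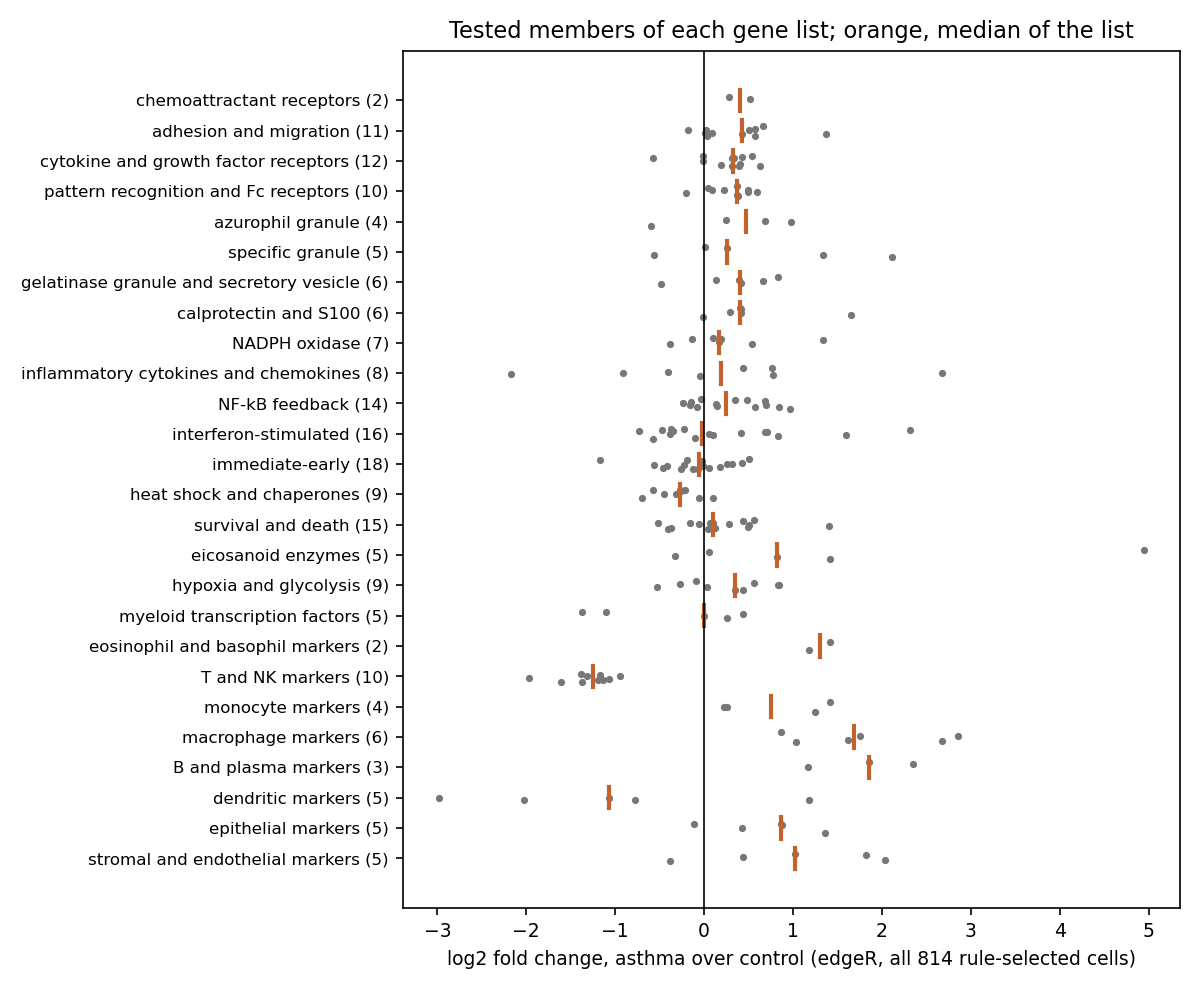
Grey points are log2 fold changes of asthma over control for the tested genes of each list in all 814 members, with the number tested in brackets and the list's median in orange. Genes of functional lists lie mostly between -1 and 1, all 10 T and NK genes below 0 and all 6 macrophage genes above 0. No gene shown passed edgeR's test in this fit, which had a filter on low counts.

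Marker lists of other lineages had medians on both sides of 0, and no test compared them with the functional lists. T and NK markers had a median log2 fold change of -1.25 (10 of 10 lower), dendritic markers -1.07 (4 of 5 lower) and macrophage markers 1.68 (6 of 6 higher). B and plasma markers had 1.85 (3 of 3 higher), stromal and endothelial markers 1.02 (4 of 5 higher), epithelial markers 0.87 (4 of 5 higher) and monocyte markers 0.75 (4 of 4 higher). In each list the filtered edgeR fit called 0 genes, and without the filter the calls included CHIT1, CLEC9A, IGKC, A2M and PRF1. The stromal and endothelial median turned to -0.153 with at least 3 marker genes and to -0.404 with doublets removed, and the epithelial median to -0.610 without control replicate 2. Leaving out 1 library at a time gave -1.845 to -0.893 for T and NK, -1.496 to -0.772 for dendritic, 0.982 to 4.233 for macrophage, 1.325 to 3.326 for B and plasma, 0.297 to 1.425 for stromal and endothelial and 0.239 to 1.145 for monocyte markers. In small cells the monocyte median was -0.32, with 2 of 2 lower, and the T and NK median -1.31, with 3 of 3 lower. The macrophage and epithelial lists had 1 tested gene each in small cells, at 0.28 and 0.93. None of these genes was called by edgeR in small cells. Among functional lists, eicosanoid enzymes had a median of 0.83, with 4 of 5 higher. The filtered edgeR fit called none, and HPGD was called by DESeq2 and by edgeR without the filter. That median was 0.0225 with at least 3 marker genes and 0.325 to 1.6 when 1 library was left out. Single cells weighed heavily here. CHIT1, a macrophage chitinase, had 281 UMIs in large cells, of which 1 cell of asthma replicate 10 held 230. CLEC9A, the marker of type 1 dendritic cells, had 158 UMIs in 15 large cells and none in small cells.

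Among genes outside the rule whose groups did not overlap, the 5 with the smallest p in small cells, named after their values were seen, were S100A4, PELI1, PTOV1, RABGEF1 and LRRC25. PELI1, a ubiquitin ligase of Toll-like receptor signalling, stood at 399, 250 and 347 CPM in control replicates 1, 2 and 3, against 94.4, 166 and 114 CPM in asthma replicates 8, 10 and 11. LRRC25, a myeloid leucine-rich repeat protein, stood at 99.7, 98.4 and 104 CPM in control against 248, 244 and 171 CPM in asthma. PELI1 rests on 129 UMIs and LRRC25 on 113 over 622 cells, of which control replicate 3 gave 10 and 3. None of them passed edgeR's test in small cells, and other cells of the same libraries had PELI1 at 53.4 to 61.5 CPM in control against 40.2 to 48.8 CPM in asthma.

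A few further inflammatory genes overlapped between the groups in small cells. TNFSF13B (BAFF, a survival factor for B cells that neutrophils release) was at 162, 431 and 590 CPM in small cells of control replicates 1, 2 and 3 and at 307, 68.3 and 57.2 CPM in asthma replicates 8, 10 and 11. NAMPT was at 872 CPM in control replicate 1 and between 153 and 243 CPM in all other libraries, so that control replicate 1 stood alone. PTGS2, the inducible cyclooxygenase, was at 835 ± 337 CPM in control against 631 ± 120 CPM in asthma (SD, n = 3), which overlapped. TNF had UMIs in 0.965% of small cells, and ALOX15, a lipoxygenase of eosinophils and macrophages, in none.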

How the data were processed

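Droplet 3′ libraries were read by the authors with Cell Ranger (version 4.0.0 in the matrix headers, 2.1.1 in the submitters' processing notes) against macFas6. The deposited counts are UMIs per gene and barcode, 29014556 to 41489879 per library. After the study's methods, a cell needed more than 500 and fewer than 5000 genes, and no more than 25% of its UMIs could lie in 13 mitochondrial genes. Members and gene lists were chosen with earlier results of these data known. No cell was removed as a doublet; Scrublet's own cut marked 10 cells (0.0394%) and was not used. Levels are UMIs per 1000000 (CPM) over the summed cells of a library.

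UMIs were summed over the members of each library and tested with edgeR 4.0.16 (R 4.3.3; quasi-likelihood, TMM, filterByExpr, Benjamini-Hochberg). Shares were compared by exact permutation over 20 assignments, with exact 95% binomial intervals. Named were the rule genes and markers as levels, in each list the 3 tested members with the highest mean CPM and any called gene, and the 5 non-overlapping genes with the smallest p in each direction; others were chosen after their values were seen. Lists held 384 symbols, 331 of them with a row. Intervals and zero limits cover counting error only. The edgeR step was tested on simulated data. Some withheld items are not reported here.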

Additional observations from a re-analysis of the deposited data

How the results depend on the processing

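The difference in the share of rule-selected cells kept its direction under 11 of 12 alternatives, a design in which no p could fall under 0.1, and turned to -0.0882 points without asthma replicate 10; leaving out each library gave -0.0882 to 1.249, and cells with more than 200 genes gave 1.46. The count of genes called was 0 under 12 of 15 alternatives, 93 without a filter on low counts, 5 with DESeq2 and 54 with the Wilcoxon test across cells. List medians (log2) shifted beyond their spread as follows; the cause was not tested. With at least 3 marker genes they were 0.0394 for adhesion and migration, -0.276 for inflammatory cytokines, -0.217 for NF-kB feedback, 0.0225 for eicosanoid enzymes, 0.0686 for hypoxia and glycolysis and -0.153 for stromal and endothelial markers. With at most 2000 UMIs, an alternative chosen after seeing the data, inflammatory cytokines gave -0.58 and NF-kB feedback -0.13. With more than 200 genes NF-kB feedback gave 0.13 and eicosanoid enzymes 0.39. Hypoxia gave -0.0272 without the filter, myeloid transcription factors -0.625 with a mitochondrial maximum of 10%, and stromal markers -0.404 with doublets removed. Leaving out each library gave -0.0246 to 1.07 for specific granule, 0.0459 to 1.22 for gelatinase granule, 0.199 to 0.975 for calprotectin and S100, -0.0364 to 0.689 for NADPH oxidase, -0.292 to 0.0558 for immediate-early, 0.325 to 1.6 for eicosanoid, -0.0834 to 0.204 for hypoxia, -0.641 to -0.0292 for myeloid transcription factors, 0.982 to 4.23 for macrophage and -0.610 to 0.65 for epithelial genes. Of the other list medians, 297 values moved by less than their spread. No paired analysis was possible because control replicates 1, 2 and 3 and asthma replicates 8, 10 and 11 share no replicate numbers. The small-cell values of control replicate 3 rest on 28 cells.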

Other observations

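Barcodes below the gene minimum also met the marker rule. Of 3941 barcodes with 201 to 500 genes, 842 (21.4%) did so, more than the 814 members. They numbered 82, 126 and 125 in control replicates 1, 2 and 3 (19.6%, 15.4% and 19.6% of such barcodes) and 117, 257 and 135 in asthma replicates 8, 10 and 11 (20.5%, 37.2% and 16.8%). Asthma replicate 10 stood apart and the other 5 libraries interleaved. A further 12 barcodes at or over the gene maximum and 21 over the mitochondrial maximum met the rule.

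Plasma cell RNA was uneven among small cells. JCHAIN, which joins polymeric antibodies, stood at 4535 CPM in control replicate 1, at 660 CPM in control replicate 3 and at no more than 87.9 CPM in the other 4 libraries. IGKC had 669 UMIs in 2 small cells of control replicate 1, of which 1 cell held 668.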
